A study of Mus musculus with 2 samples.

Results

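Genes of the proteasome were examined for Sap130 binding in the mouse embryonic brain. Sap130 belongs to the corepressor complexes built on Sin3 and histone deacetylases. The set holds 38 subunit genes, chosen by name, and a gene counted as labelled when the authors' peak table carried its symbol as the annotation of a peak. Of the 38 genes, 28 were labelled, by 30 of the 16231 peaks in the table. The study sequenced DNA pulled down by anti-Sap130 (rabbit, 2 µg) in 1 library, and input DNA, which had not been through the precipitation, in 1 other. Both were from brain of B6 wildtype embryos at E13.5, with no further allele, treatment or agent named. There was no replicate, the read depth is unknown, and the table gives no peak height, so no test between samples was possible and the values describe 1 peak list.

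The proteasome is the protease that degrades proteins tagged with ubiquitin. Its 20S core is a barrel of alpha and beta rings, in which beta subunits hold the proteolytic sites and alpha rings form the gate. The 19S regulatory particle caps the core, binds ubiquitin chains, removes them and unfolds the substrate with a ring of ATPases. Activators of the PA28 and PA200 families can cap the core instead. In cells exposed to interferon gamma the catalytic beta subunits can be replaced by inducible ones, which gives the immunoproteasome. Sin3-HDAC complexes remove acetyl groups from histones, and a peak at a gene says where Sap130 was recovered, not whether the gene was expressed.

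Labels were found in every role but 1. Every gene for a constitutive beta subunit carried a label and no gene for an inducible one did, in small groups whose difference was not tested. The 28 labelled genes made up 73.7% of the 38 (exact 95% interval 56.9 to 86.6, counting error only), beside a background of 49.2% of 20953 protein-coding genes with a curated transcript. By part, 12 of 17 genes of the 20S core (70.6%), 13 of 17 of the 19S particle (76.5%) and 3 of 4 activators (75%) were labelled. The intervals of these parts were 44 to 89.7, 50.1 to 93.2 and 19.4 to 99.4, so they overlap widely and no difference between core, regulatory and activator genes can be read from the counts. By role, the labelled genes were 5 of 7 alpha subunits, 7 of 7 constitutive beta subunits, 0 of 3 inducible beta subunits, 3 of 6 ATPases and 10 of 11 non-ATPase subunits of the 19S particle. The intervals were 29 to 96.3 for alpha, 59 to 100 for constitutive beta, 0 to 70.8 for inducible beta, 11.8 to 88.2 for ATPase and 58.7 to 99.8 for non-ATPase genes. Those of the constitutive and inducible beta genes overlap, the inducible one holds the background of 49.2%, and no difference between roles was tested.

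Promoter sequences are shown for genes with and without a label, so that their CpG content can be read beside the peaks. They are the 250 bases before the annotated start (RefSeq, build GRCm38.p6), written 5′ to 3′ along the gene, with CpG dinucleotides in capitals. The first lines give, for the alpha, constitutive beta, ATPase, non-ATPase and activator groups, the labelled gene that stood earliest in the peak list among those with a promoter entry. These are Psma3 (plus strand, chr12:70974373-70974622), Psmb4 (minus strand, chr3:94886959-94887208), Psmc6 (plus strand, chr14:45329574-45329823), Psmd14 (plus strand, chr2:61711444-61711693) and Psme3 (plus strand, chr11:101315963-101316212).
Psma3: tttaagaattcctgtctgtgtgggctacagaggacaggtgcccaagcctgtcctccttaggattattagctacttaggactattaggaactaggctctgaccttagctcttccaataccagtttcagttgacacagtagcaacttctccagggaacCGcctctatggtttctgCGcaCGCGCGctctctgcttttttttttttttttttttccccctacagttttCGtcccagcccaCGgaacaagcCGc
Psmb4: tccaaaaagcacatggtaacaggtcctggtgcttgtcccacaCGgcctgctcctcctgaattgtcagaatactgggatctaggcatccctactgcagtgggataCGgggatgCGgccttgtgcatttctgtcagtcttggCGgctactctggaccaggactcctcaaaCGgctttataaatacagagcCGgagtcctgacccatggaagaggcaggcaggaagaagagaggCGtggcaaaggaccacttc
Psmc6: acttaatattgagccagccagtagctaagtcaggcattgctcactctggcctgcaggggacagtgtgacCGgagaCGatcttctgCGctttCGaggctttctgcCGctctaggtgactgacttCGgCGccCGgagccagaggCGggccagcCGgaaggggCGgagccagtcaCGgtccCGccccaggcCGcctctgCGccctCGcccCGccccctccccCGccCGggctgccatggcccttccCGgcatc
Psmd14: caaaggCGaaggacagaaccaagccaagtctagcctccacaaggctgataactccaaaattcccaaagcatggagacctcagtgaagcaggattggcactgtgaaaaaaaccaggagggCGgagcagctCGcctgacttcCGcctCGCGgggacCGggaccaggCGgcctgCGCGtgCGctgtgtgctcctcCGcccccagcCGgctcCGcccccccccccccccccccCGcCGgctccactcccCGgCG
Psme3: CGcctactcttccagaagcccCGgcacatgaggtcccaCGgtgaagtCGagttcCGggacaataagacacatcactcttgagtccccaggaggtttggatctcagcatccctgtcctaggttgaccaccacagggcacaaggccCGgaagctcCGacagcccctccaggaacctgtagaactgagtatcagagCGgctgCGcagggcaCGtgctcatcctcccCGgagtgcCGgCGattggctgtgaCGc
The stretches of Psmc6 and Psmd14 held 20 and 18 CpG dinucleotides, that of Psme3 held 14, and those of Psma3 and Psmb4 held 8 and 7.

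The next lines give the genes without a label. Psma7 (minus strand, chr2:180042465-180042714) lay under a peak that bore the name of a neighbour. The inducible genes Psmb8 (plus strand, chr17:34197945-34198194), Psmb9 (minus strand, chr17:34187331-34187580) and Psmb10 (minus strand, chr8:105938393-105938642) had no peak at the start.
Psma7: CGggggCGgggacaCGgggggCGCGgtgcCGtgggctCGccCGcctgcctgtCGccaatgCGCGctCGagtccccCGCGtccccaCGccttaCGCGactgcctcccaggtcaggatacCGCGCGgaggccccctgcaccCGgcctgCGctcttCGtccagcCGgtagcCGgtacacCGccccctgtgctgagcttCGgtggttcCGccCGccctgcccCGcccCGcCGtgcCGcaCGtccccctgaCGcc
Psmb8: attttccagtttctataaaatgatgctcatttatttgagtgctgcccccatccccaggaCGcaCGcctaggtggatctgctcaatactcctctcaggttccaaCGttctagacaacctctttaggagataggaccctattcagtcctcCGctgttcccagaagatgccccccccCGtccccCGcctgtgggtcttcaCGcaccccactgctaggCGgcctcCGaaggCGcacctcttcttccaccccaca
Psmb9: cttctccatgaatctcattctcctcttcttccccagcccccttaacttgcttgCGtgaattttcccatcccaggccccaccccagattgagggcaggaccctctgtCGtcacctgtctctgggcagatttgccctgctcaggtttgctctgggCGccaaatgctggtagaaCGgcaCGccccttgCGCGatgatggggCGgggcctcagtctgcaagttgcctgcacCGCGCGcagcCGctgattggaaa
Psmb10: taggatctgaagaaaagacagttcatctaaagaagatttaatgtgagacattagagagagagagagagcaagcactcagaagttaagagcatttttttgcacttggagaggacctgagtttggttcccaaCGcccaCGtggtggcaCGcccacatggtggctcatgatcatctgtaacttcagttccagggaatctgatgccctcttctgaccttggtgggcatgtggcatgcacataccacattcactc
Psma7 held 35 CpG dinucleotides in these 250 bases, while Psmb8 held 10, Psmb9 held 12 and Psmb10 held 3. Psma3 and Psmb4, both labelled, thus had fewer than Psmb8 and Psmb9. By the ratio of observed to expected CpG in 300 bases around the start, the order differed in part. Psmb8 (0.52) lay below Psma3 (0.55) and Psmb4 (0.54), and Psmb9 (0.5996) lay above them.

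**Figure D1:**
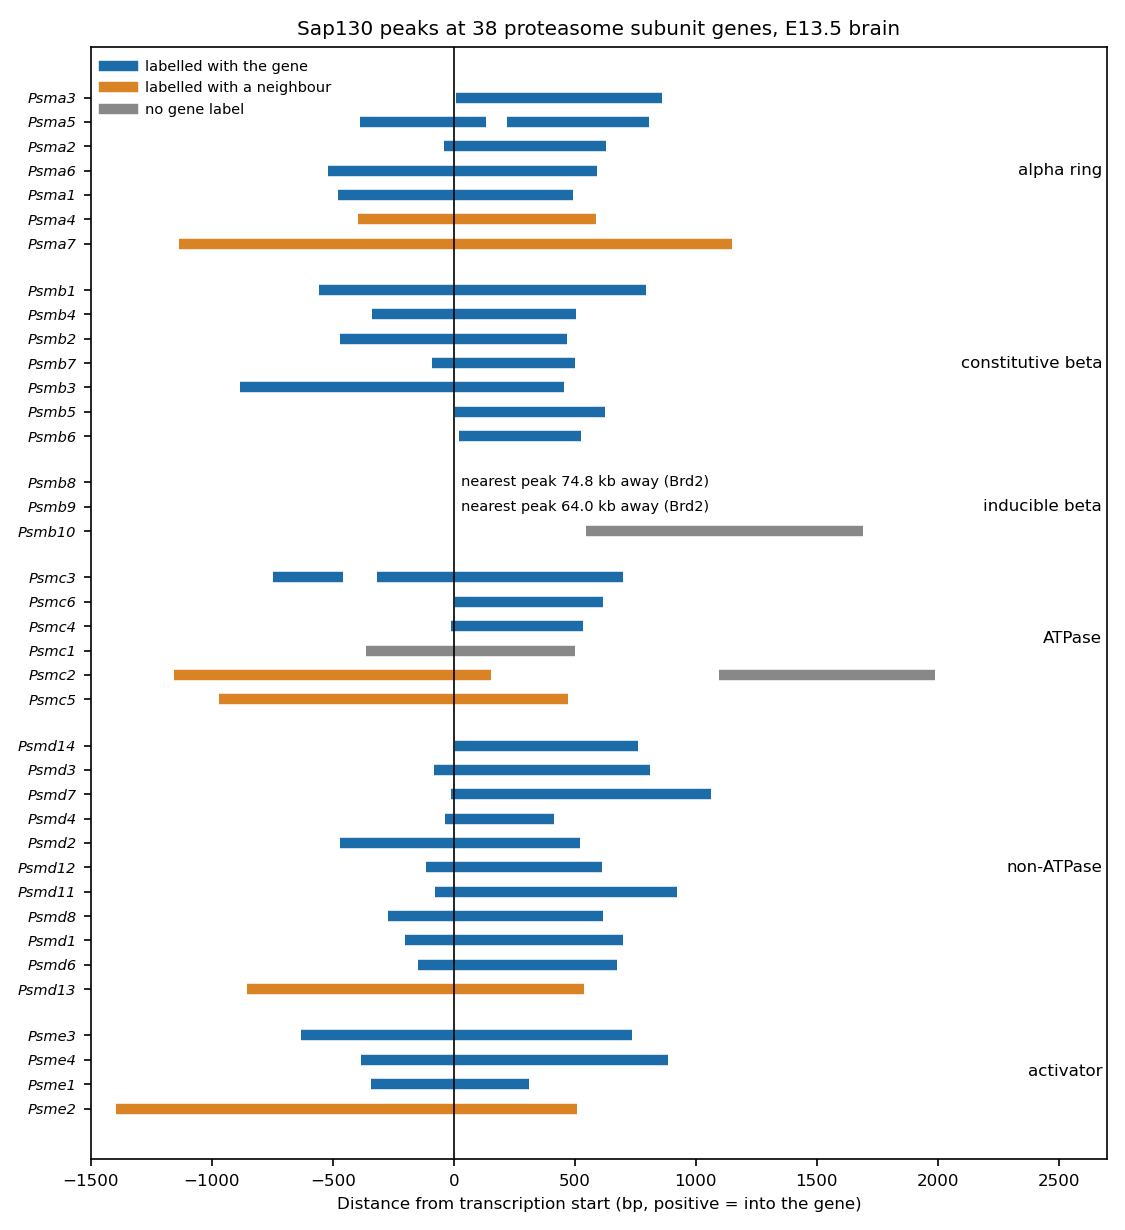
Peaks at the 38 proteasome subunit genes, drawn as bars along the distance from the transcription start in bp, positive into the gene. Blue bars carry the gene's own label and are placed on the labelled start, orange bars carry a neighbour's label and grey bars none, both placed on the outermost annotated start. The constitutive subunits have a bar at or just inside the start, while Psmb8 and Psmb9 have none and the bar of Psmb10 begins 548 bp inside the gene.

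In the alpha ring, which gates the core, Psma3, Psma5, Psma2, Psma6 and Psma1 were labelled. Psma3 stood earliest, with an 851 bp peak (chr12:70974634-70975485) at place 1618, where place is the running number of a peak in the table and 1 is the first. The quantity by which the authors ordered the list is not stated, so place is used only to describe. Psma5 had a pair of peaks, 519 bp at place 3540 (chr3:108256540-108257059) and 587 bp at place 6384 (chr3:108257145-108257732). The first covered the start of Psma5, the second lay in intron 1, and 86 bp separated them. Psma2 had a 669 bp peak at place 5029 (chr13:14613203-14613872). The peak centre lay 436.5 bp inside the gene in Psma3 and 295.5 bp inside in Psma2, while the centres of the Psma5 peaks lay at -126.5 and 512.5 bp, counted into the gene. Psma6 (1113 bp, place 5546) and Psma1 (972 bp, place 6704) followed, with peak centres 35.5 and 8 bp inside the gene, in the 5′ UTR of exon 1.

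All 7 constitutive beta genes were labelled, including the 3 that encode the catalytic subunits of the standard proteasome, Psmb5, Psmb6 and Psmb7. Psmb1 had a 1352 bp peak at place 3476 (chr17:15497481-15498833), the widest peak among the labelled core genes. Psmb4 (845 bp, place 3935, chr3:94886450-94887295) and Psmb2 (941 bp, place 3965, chr4:126677171-126678112) followed, then Psmb7 (592 bp, place 4513) and Psmb3 (1341 bp, place 5714). The centre lay 118 bp inside the gene in Psmb1 and 84.5 bp inside in Psmb4, and that of Psmb2 lay at -1.5 bp, practically on the start. Psmb5 (622 bp, place 8662, chr14:54617367-54617989) and Psmb6 (503 bp, place 10171, chr11:70525380-70525883) stood later in the list than any other labelled core gene. Of the catalytic genes, Psmb7 thus lay in the first 8115 peaks, and Psmb5 and Psmb6 outside them.

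The inducible genes Psmb8, Psmb9 and Psmb10 encode the subunits that take the place of Psmb5, Psmb6 and Psmb7 in the immunoproteasome, and none had a label. Psmb8 and Psmb9 lie next to the peptide transporter genes Tap1 and Tap2 in the major histocompatibility region of chromosome 17. The start of Psmb9 was 64 kb and that of Psmb8 74.8 kb from the edge of the nearest peak, the 6016 bp peak of Brd2 (chr17:34117329-34123345, place 1612), which was the widest labelled peak of any of the 10314 labelled protein-coding genes. The next peak on the other side was a 353 bp peak labelled BC051142 at place 13533 (chr17:34398848-34399201). The stretch between them, 276 kb, held 13 protein-coding genes, among them H2-Ab1, H2-Aa and H2-Eb1 of class II antigen presentation. Of 16210 gaps between neighbouring nuclear peaks, 2079 (12.8%) were at least as long, and the median gap was 35.8 kb. This share counts gaps, and a long gap takes up more of the genome than a short one. The share of genes or bases in gaps this long is therefore higher than a count of gaps shows and was not computed. Psmb10, on chromosome 8, had a 1142 bp peak inside the gene (chr8:105936702-105937844, place 5743) without a gene label. That peak ended 548 bp from the start of Psmb10 and its centre lay 1119 bp inside, just outside the 1 kb within which the centres of labelled peaks lay.

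In the 19S particle, the ATPase ring unfolds substrates and opens the gate. Its genes Psmc3, Psmc6 and Psmc4 were labelled. Psmc3 had a 1017 bp peak over its start at place 2731 (chr2:91053700-91054717) and a second of 290 bp, 141 bp further upstream, at place 16079 (chr2:91053269-91053559). The second peak was the narrowest and the last in the list of the 30. Psmc6 had a 611 bp peak at place 2813 (chr14:45329828-45330439) and Psmc4 a 545 bp peak at place 6550 (chr7:28049556-28050101). The centres of the peaks over or beside the starts lay 192.5 bp inside Psmc3, 309.5 bp inside Psmc6 and 262.5 bp inside Psmc4. Psmc1, Psmc2 and Psmc5 had no label, although peaks lay over their starts.

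Of the non-ATPase genes, Psmd13 was the exception without a label. Psmd14, which encodes the deubiquitinase that removes ubiquitin chains from substrates, had a 758 bp peak at place 362 (chr2:61711698-61712456), the earliest of any core or 19S gene. Psmd3 (894 bp, place 1489, chr11:98682472-98683366) and Psmd7, the partner of Psmd14 in a dimer (1073 bp, place 1635, chr8:107587419-107588492), followed. Psmd4, a ubiquitin receptor, had the narrowest of the earliest labelled peaks, 449 bp at place 1724 (chr3:95042130-95042579). The centre lay 383 bp inside the gene in Psmd14, 365 bp in Psmd3, 525.5 bp in Psmd7 and 189.5 bp in Psmd4. Psmd2, Psmd12, Psmd11, Psmd8 and Psmd1 had peaks of 727 to 999 bp between places 3769 and 5861. Psmd6, with 823 bp at place 7447, was last in this group.

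The activator genes were the most spread along the list. Psme3 encodes PA28 gamma, a nuclear activator, and its 1367 bp peak (chr11:101315621-101316988) stood at place 10, the earliest and the widest of all labelled proteasome genes. Psme4, which encodes PA200, had a 1269 bp peak at place 4542 (chr11:30771390-30772659). Psme1 and Psme2 encode PA28 alpha and beta, which are inducible by interferon gamma and form 1 cap together. Psme1 had a 654 bp peak over its start (chr14:55578152-55578806), but at place 15945, the last of the earliest labelled peaks. Psme2 had no label. The centre lay 53.5 bp inside Psme3 and 249.5 bp inside Psme4, and at -15 bp in Psme1. The genes at both ends of the order of places thus encode subunits of the same activator family.

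**Figure D2:**
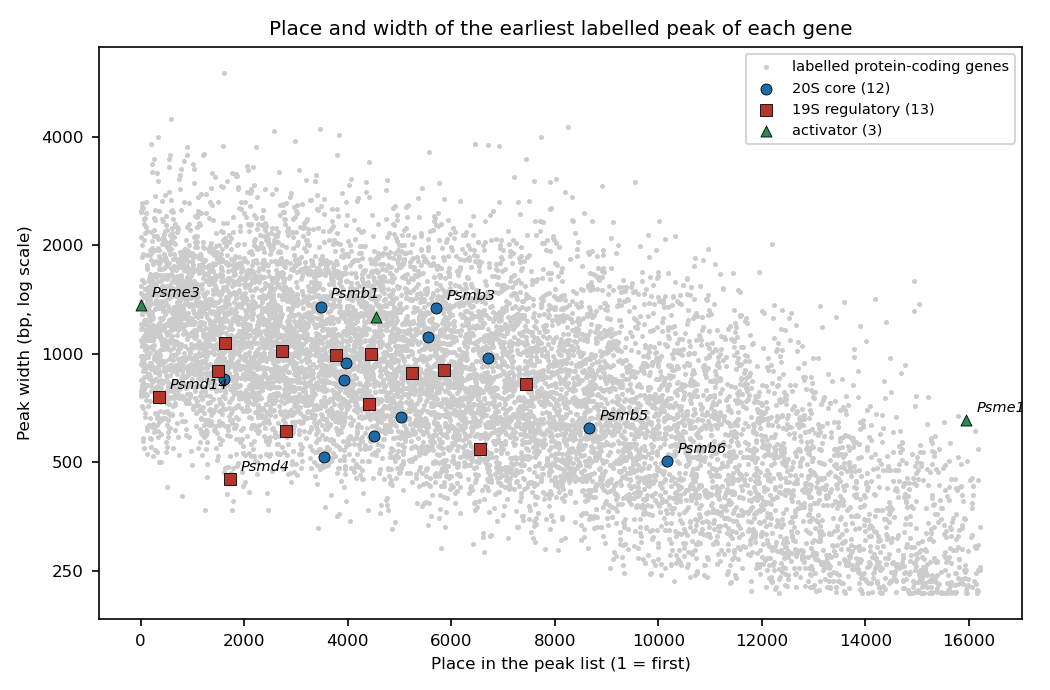
Place in the peak list (x axis, 1 is the first peak) and peak width in bp (y axis, log scale) for the earliest labelled peak of each gene. Grey points are the 10314 labelled protein-coding genes, blue circles 12 core genes, red squares 13 genes of the 19S particle and green triangles 3 activators. Most proteasome genes lie between places 1489 and 7447, with Psme3 and Psmd14 before and Psmb5, Psmb6 and Psme1 after them.

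Proteasome peaks were of ordinary width and stood somewhat early in the list. The median place was 4426.5 for the 28 labelled genes (range 10 to 15945), beside 5851.5 for all labelled protein-coding genes. Median width was 869 bp (range 449 to 1367), beside 841 bp. When labelled protein-coding genes were split by place into 4 bins of 25% each, 8, 13, 5 and 2 proteasome genes fell into them from the first to the last. By width, from narrow to wide, the counts were 4, 8, 12 and 4. The median place was 4771 for core genes, 3769 for 19S genes and 4542 for activators, and the median widths were 848, 887 and 1269 bp. The ranges of place overlapped, 1618 to 10171 in the core, 362 to 7447 in the 19S particle and 10 to 15945 in the activators, and these differences were not tested.

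Peaks lay across the start and into the gene. In 24 of 28 labelled genes (85.7%) the centre of the earliest peak was downstream of the start, beside 84.7% of all labelled protein-coding genes. The median centre lay 227.75 bp inside (range -214.5 to 525.5), beside 214 bp. It lay 101.25 bp inside in core genes, 262.5 bp in 19S genes and 53.5 bp in activators. All 13 labelled 19S genes had their centre downstream, from 25.5 bp in Psmd2 to 525.5 bp in Psmd7, while those of Psma5, Psmb2, Psmb3 and Psme1 lay upstream. The centre was in intron 1 in 14 genes (50%) and in the 5′ UTR of exon 1 in 5 (17.9%). It was in the coding part of exon 1 in 5 (17.9%) and upstream in 4 (14.3%). Over all labelled protein-coding genes the shares were 43.4% in intron 1 and 21.4% in the 5′ UTR of exon 1. They were 17.1% in the coding part of exon 1 and 15.3% upstream.

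In 23 of 28 genes (82.1%) the peak covered the labelled start, beside 80% of all labelled protein-coding genes. In the other 5 the peak began within 25 bp inside the gene. The gap was 4 bp in Psmc6 and Psmd14, 5 bp in Psmb5, 11 bp in Psma3 and 23 bp in Psmb6. Such an edge was found in 17.9% of labelled proteasome genes and in 5.47% of all labelled protein-coding genes. This contrast was noticed after the values were seen and was not tested. The limit of 25 bp lies just above the largest of the 5 gaps, 23 bp, so the share in proteasome genes depends on that choice. Transcript models differ by some bases, so an edge this near the start is not resolved from it. Psmd4 is an example, since its peak covered the start of the authors' model and ended 35 bp inside the start in the RefSeq table.

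Of the 10 genes without a label, 7 had a peak over a start all the same. In 6 of these the peak carried the name of a gene that starts nearby on the opposite strand, and the table gives 1 gene per peak. Psma7 shared a 2286 bp peak at place 2136 (chr2:180041314-180043600) with Ss18l1, a subunit of neuronal BAF complexes, which starts 19 bp upstream. Psmd13 shared a 1392 bp peak at place 704 (chr7:140881540-140882932) with Sirt3, a mitochondrial deacetylase gene 85 bp upstream. Psmc5 shared a 1443 bp peak at place 2148 (chr11:106255213-106256656) with Ftsj3, a gene of ribosome production 101 bp upstream. The first start of Psmc2 lay under a 1308 bp peak at place 752 (chr5:21784120-21785428) labelled Dnajc2, 111 bp upstream. Psme2 lay under a 1906 bp peak at place 5083 (chr14:55590592-55592498) labelled Rnf31, 641 bp upstream. Psma4 lay under a 984 bp peak at place 4483 (chr9:54950462-54951446) labelled AY074887, whose start lies 94 bp inside Psma4 on the other strand. In each case 1 peak covered both starts, so it cannot be told apart which of the neighbours the peak belongs to.

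Psmc1 had an 862 bp peak over its start (chr12:100109839-100110701, place 2639) that carried no gene, although its centre lay 68 bp from the start and no other annotated start was found within 1 kb of it. Psmc2 also had an unlabelled 889 bp peak over its second start (chr5:21786373-21787262, place 6933). The 6 peaks with a neighbour's label were 984 to 2286 bp wide (median 1417.5 bp) and stood at places 704 to 5083. Among all unlabelled protein-coding genes with a promoter entry, 9.12% of 8444 had a peak over a start. That share was not split by CpG content or by the presence of a labelled neighbour. It is therefore not a like comparison for the unlabelled proteasome genes.

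A start of another gene on the opposite strand within 1 kb was found for 8 of the 38 genes. Of these Psma2, which has the mitochondrial ribosomal protein gene Mrpl32 205 bp upstream, was labelled as well as its neighbour. Psmb9 and its neighbour Tap1, 226 bp upstream, were both without a peak. In the other 6 the neighbour held the label. With starts from the promoter table alone, 6 of 32 proteasome genes (18.8%) had such a neighbour, beside 16.6% of 16783 protein-coding genes. Of the protein-coding genes with one, 65.7% were labelled, and 46.5% of those without one. For proteasome genes the labelled counts were 1 of 6 with a neighbour and 21 of 26 without.

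When any peak centred within 1 kb of a start was counted, whatever its label, 35 of 38 genes had one (92.1%, interval 78.6 to 98.3). The background under the same rule was 54.3% of 16783 protein-coding genes with a promoter entry. The 3 exceptions were Psmb8, Psmb9 and Psmb10. All 17 genes of the 19S particle in the set and all 4 activators had such a peak, as had all 14 constitutive core genes. The 28 labelled genes passed nearly by construction, since the centres of labelled peaks lay within 1 kb of the labelled start. For 6 of them the start was that of the authors' label itself. The rule adds only Psma4, Psma7, Psmc1, Psmc2, Psmc5, Psmd13 and Psme2, from the 10 genes without a label. Among the 32 with a start from the promoter table, 29 passed (90.6%, interval 75 to 98), and 22 of the 32 were labelled. This rule was added after the data were seen, and the same 3 genes lack a label under the authors' own annotation. A stricter count, a peak covering a start, gave 29 of 38 (76.3%). Among the 32 with a start from the promoter table it gave 23 (71.9%, interval 53.3 to 86.3). The background, also of genes with a promoter entry, was 44.8%.

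The labels themselves were also counted under narrower rules. With the peak centre within 500 bp of the start, 27 genes counted, without Psmd7, beside a background of 44.0%. In the first 8115 peaks of the list 25 did, without Psmb5, Psmb6 and Psme1, beside 33.0%. Among peaks wider than the median of the table, 690 bp, 19 did, beside 31.6%. With the label within 50 bp of the outermost start of the gene, 24 did, beside 27.8%. A peak within 1 kb of either end of the gene was found for 35, beside 52.0%, and here Psmb10 counted and Psma6, which is labelled at its second start, did not. Over all protein-coding genes, curated or not, the background of the labels was 47.7%.

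**Figure D3:**
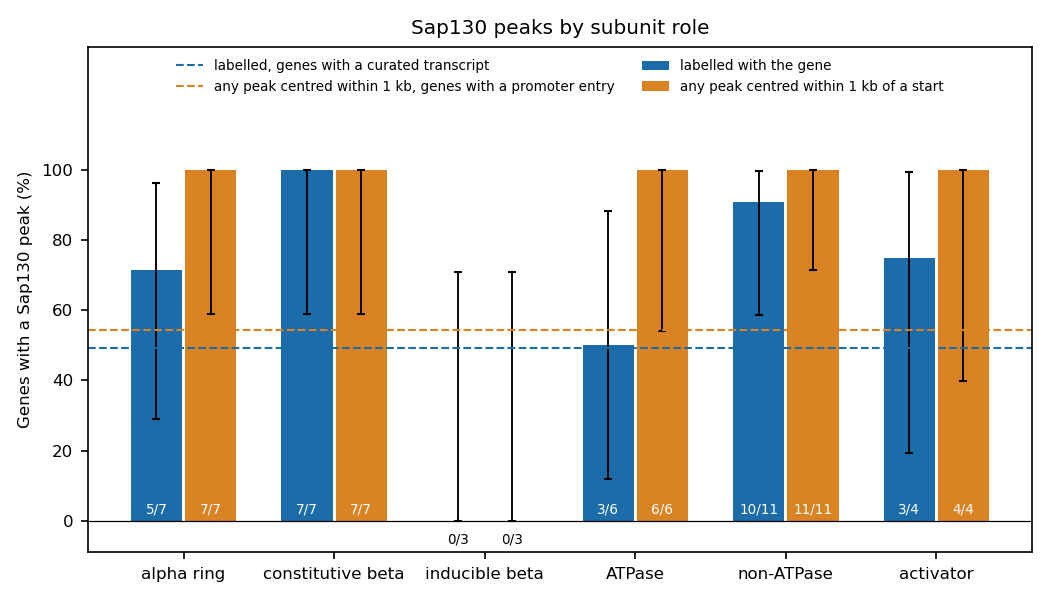
Percent of genes with a Sap130 peak by subunit role, with exact 95% intervals as error bars and counts printed in or under the bars. Blue bars count the authors' labels, orange bars any peak centred within 1 kb of a start, and dashed lines give the backgrounds, 49.2% of 20953 protein-coding genes with a curated transcript and 54.3% of the 16783 with a promoter entry. Every role but the inducible beta subunits reaches 100% by the second rule, and the inducible subunits stay at 0 of 3.

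Of the 35 promoter sequences of proteasome genes, 25 (71.4%) had a CpG ratio of at least 0.6, beside 49.2% of 20418 sequences of protein-coding genes. Over the genome, the share of labelled genes differed widely with this ratio. It is the ratio of observed to expected CpG dinucleotides in 300 bases around the start, and the promoter with the highest ratio stood for a gene. Of protein-coding genes with a ratio of at least 0.6, 80.2% were labelled, and of those under 0.6, 15.9%. Proteasome genes with a promoter entry numbered 24 at or above 0.6, of which 18 (75%, interval 53.3 to 90.2) were labelled. Their share was thus no higher than that of other genes of the same class. By any peak centred within 1 kb, all 24 had one (interval 85.8 to 100), beside a background of 88.6%, which lies within the interval. A peak covered the start in 20 of 24 (83.3%), beside 76.0%. Under 0.6, 4 of 8 were labelled (interval 15.7 to 84.3), beside a background of 15.9%. A peak centred within 1 kb was found for 5 of 8 (24.5 to 91.5), beside 16.3%. A peak covered the start in 3 of 8 (8.52 to 75.5), beside 10.3%. These backgrounds span all lower ratios, whereas 7 of the 8 genes lay between 0.5 and 0.6, where 54.6% of protein-coding genes were labelled.

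The 8 genes under 0.6 included Psma3, Psmb4, Psmd4, Psme1 and Psme2, each with a peak centred within 1 kb of a start. The others, Psmb8, Psmb9 and Psmb10, had none by that rule. The peak inside Psmb10 was centred 1119 bp from its start, outside that limit. The ratio was 0.55 for Psma3, 0.54 for Psmb4, 0.51 for Psmd4, 0.58 for Psme1 and 0.54 for Psme2. It was 0.52 for Psmb8, 0.5996 for Psmb9 and 0.19 for Psmb10. Psmb8 and Psmb9 lay among the ratios of genes that had a peak centred within 1 kb, with Psmb9 at the limit of the class. Psmb10 was the lowest of all 32. Of protein-coding genes whose ratio lay between 0.1 and 0.2, as did that of Psmb10, 2.57% were labelled.

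**Figure D4:**
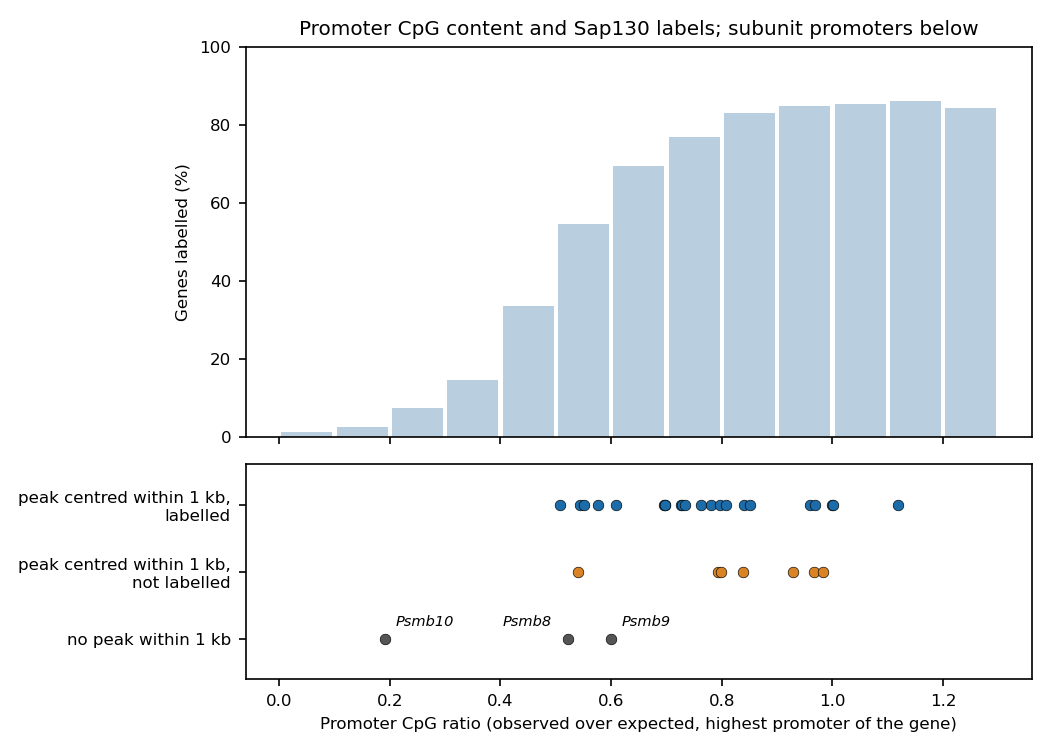
Upper panel, percent of protein-coding genes with a label in bins of promoter CpG ratio (observed over expected, bins of at least 20 genes). Lower panel, each proteasome gene with a promoter entry at its highest ratio, by whether it had a label, a peak without its label, or no peak centred within 1 kb. The share of labelled genes is 1.4% in the lowest bin and 86.2% at ratios of 1.1 to 1.2. The genes with no peak centred within 1 kb lie at 0.19, 0.52 and 0.5996.

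Short motifs were counted on both strands in the 35 promoter sequences of the 32 genes, each of 300 bases. The ETS letters CCGGAAGT were in 9 sequences (25.7%, interval 12.5 to 43.3), those of Psma6, Psmc1, Psmc2 at both starts, Psmd6, Psmd12, Psmd13, Psme3 and Psme4. They were in 3.89% of all 32851 promoter sequences and in 9.12% of protein-coding ones with a CpG ratio of at least 0.6. The NRF1 motif was in 6 (17.1%), those of Psma2, Psma3, Psma4, Psmc4, Psmc5 and Psmd14, beside 4.6% and 12.6%. In the sequences printed above, the NRF1 motif begins 78 bases before the start of Psma3 and 80 before that of Psmd14. The GC box GGGCGG was in 20 (57.1%), beside 35.7% of all and 74.4% of CpG-rich promoters. CCAAT, the letters of NF-Y, was in 12 (34.3%), beside 37.4% and 36.6%. The antioxidant response letters TGACNNNGC, the kind of site bound by the proteasome regulator Nfe2l1, were in 5 (14.3%), beside 12.4% and 15%. The E-box CACGTG was in 3, the YY1 letters ATGGCGGC in 1 and the CRE TGACGTCA in 0. Shares of all promoters for these were 7.15%, 2.24% and 1.79%. No motif of the 8 holds another, but their ends can share up to 5 bases, and a match is a run of letters, not a bound site. Of the inducible genes, Psmb9 held a GC box and CCAAT, Psmb10 an E-box and Psmb8 none of these letters.

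Genes for further subunits and for proteins that act with the proteasome were labelled at a similar rate. The first list held 21 genes for assembly factors, associated proteins, regulators and some subunits outside the main set. Of these, 20 were found in the reference and 16 of the 20 (80%, interval 56.3 to 94.3) were labelled. Adrm1, a ubiquitin receptor of the 19S particle, stood at place 441 and Ddi2, the protease that activates Nfe2l1, at place 442. Nfe2l1 itself, the transcription factor that raises proteasome genes when the proteasome is inhibited, stood at place 1536, and the assembly chaperone gene Psmg4 at place 1773. The 4 without a label were Psmg2, the testis subunit Psma8, the thymus subunit Psmb11 and Ngly1. Over the start of Ngly1 lay a peak without its label. For Psmg2, Psma8 and Psmb11 no peak over a start was found either, but only 17 of the 20 genes had a promoter entry to check. Of 22 genes that supply ubiquitin or deliver substrates, 18 (81.8%, interval 59.7 to 94.8) were labelled. Ubqln1 at place 552, Vcp at 1200 and Nploc4 at 1244 were among the earliest, and Ubb, Rps27a, Ufd1 and Ubqln2 had no label, though a peak lay over the starts of Ubb and Ufd1. Against the background of 49.2%, both lists lay high, as did the proteasome genes. Of protein-coding genes with a CpG ratio of at least 0.6, however, 80.2% were labelled, and the lists were not split by this ratio. The median places of the lists were 2974.5 and 3799.

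Genes of class I antigen presentation, the pathway the immunoproteasome serves, were mixed. Of 13 genes, 8 (61.5%, interval 31.6 to 86.1) were labelled, an interval that holds the background of 49.2%. Calr, Pdia3 and Canx, general chaperones of the endoplasmic reticulum, stood at places 279, 1395 and 1611. Irf1, Erap1, B2m and Tapbp stood at 9519, 10369, 11592 and 11948. Tap1, Tap2, Nlrc5, H2-K1 and H2-D1 had no label, and of these H2-D1 had a peak over its start. The median place of the labelled 8 was 7131.5.

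Markers of brain and of other cells gave the setting. Of the 5 progenitor and 5 neuron markers, 4 each were labelled, with Nes and Dcx the exceptions, while 0 of 4 microglia, 0 of 4 erythroid and 0 of 3 endothelial markers were. With so few genes the exact interval of 0 of 4 reaches 60.2% and that of 0 of 3 reaches 70.8%, both above the background of 49.2%. A label is not a level of expression, so the cell types present cannot be measured from the table, and the part of microglia or other immune cells in the missing peaks at the inducible genes was not tested.

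Chromosome 11 carried the most members, 8, of which 7 were labelled, Psmc5 being the exception. Chromosome 14 carried 5, with 4 labelled. None lay on X. The 3 members on chromosome 17 were Psmb1, which had a label, and Psmb8 and Psmb9. Shares over all genes of each chromosome were not computed, so these counts only locate the members.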

How the data were processed

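Sap130 ChIP and input DNA of E13.5 mouse brain were sequenced as 1 library each. Bowtie 1.1.2, MACS2 2.1.0.20140616 and the GRCm38 (mm10) build are named, per the submitters' processing notes. Alignment settings, peak threshold, filters: not given in the sources used here. In the 1 deposited peak table used, the authors list 1 row per peak with a running number, coordinates and, for most, a gene and transcript model. It holds no count, height or p-value, so depth is unknown. Peak coordinates are printed as deposited. Transcript starts of the models count from 0 and were raised by 1 base.

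Members were rows whose annotation equalled one of 38 symbols. The members and lists were chosen with earlier results of these data known. Where a gene had several labelled peaks, values are those of the earliest. Labels were matched to RefSeq genes of GRCm38.p6 by transcript accession (12520 peaks), by symbol or synonym (134) or not at all (2). The background was protein-coding genes on autosomes and X with a curated transcript. Promoter entries were found for 32 members and not for Psmb1, Psmb2, Psmb7, Psmc3, Psmd3 and Psmd7, whose start was taken from the deposited model. Shares carry exact Clopper-Pearson intervals. Genes of 1 list are not replicates and no list was tested. The assembly list gene Paaf1 was not used here. Alternatives changed the centre window, the list depth, the width, the start and the background. Position rules were checked on simulated data. Full values were given for the 3 earliest labelled genes of each role (all in roles of 4 or fewer), those with several peaks, the widest, narrowest and last, and every unlabelled member; of the lists on assembly, ubiquitin and antigen presentation, the 4 earliest labelled and all unlabelled genes were named, except for 2 labelled genes that are not reported here. Marker lists are given by count. Python 3.11.15, pandas 2.3.3, numpy 2.4.6, scipy 1.17.1 and matplotlib 3.10.9 were used.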

Additional observations from a re-analysis of the deposited data

How the results depend on the processing

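The count of labelled members stayed within 1.5 times of 28 under every setting run, from 19 among peaks wider than the median to 35 with any peak near a gene end or a start. It was 27 with the centre within 500 bp, 25 in the first 8115 peaks and 24 with the label at the outermost start (within 50 bp). For the core, peaks wider than the median left 7 of 17 genes, outside 1.5 times of the 12 labelled. For the 19S particle they left 10 of 17. That setting could only lower a count. The background share moved to 44.0% within 500 bp, 33.0% in the first 8115 peaks, 31.6% among the wider peaks, 27.8% at the outermost start, 52.0% for any peak within 1 kb of either gene end, 44.8% for a peak covering a start, 54.3% for one centred within 1 kb, 47.7% over all protein-coding genes and 80.2% over promoters with a CpG ratio of at least 0.6. The last, with the rules on any peak at a start, was chosen after seeing the data. The YY1 share was 0% in the 250 bases before the start, since its 1 match did not lie wholly before it. In all, 54 values were within their limits under another setting and 11 were not. The medians of place, width and centre stayed within the binomial interval of the median. Only 2 members had a second labelled peak, and for the 3 labelled activators the interval was their whole range. These settings could therefore move the medians little. Psmb8 and Psmb9 had no peak under any setting, but no setting could have given them one. The nearest peak lay 74.8 kb from Psmb8 and 64 kb from Psmb9, and the settings looked no further than 1 kb. A stricter peak threshold could not be set without a score per peak. A looser one, which the absence of a peak would need, could not be set from a list of called peaks. No paired analysis was possible because the ChIP and the input DNA have 1 library each.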
